A study of Mus musculus with 20 samples.

Results

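The 9 genes described here are the liver X receptors and the sterol efflux genes of the mouse liver: the receptors Nr1h3 and Nr1h2, the transporters Abca1, Abcg1, Abcg5 and Abcg8, and the lipid enzymes and transfer protein Lpcat3, Pltp and Lcat. They were matched by symbol among the 55487 gene identifiers of a table of unnormalised read counts, and each symbol matched 1 identifier. Each of the 9 passed the filter on low counts in every comparison. Liver RNA came from 20 female C57BL/6J mice that were 28 weeks old. Mice in the chow group (n = 5) ate chow throughout. The others ate a high-fat diet (HFD) from 8 weeks of age for 10 weeks, and then an HFD for 10 more weeks in which part of the casein was replaced by fishmeal from salmon by-products (n = 5), salmon filet or beef. All HFD groups therefore share both the earlier diet and the high fat content, and chow differs from them in fat, carbohydrate and protein at once, which cannot be told apart. According to the paper, the HFDs also held more cholesterol than chow, and the fishmeal diet held the most. Added soybean oil differed between the HFDs as well. These differences cannot be told apart from those in protein source. The mice are separate animals, and the study chose the livers it sequenced as representatives of larger groups.

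1 mouse is named in conflicting ways. Mouse 31 is labelled as fed salmon filet, while the column of counts that bears its number is marked beef. It was left out of every comparison that sets salmon filet or beef apart, which leaves 5 mice with salmon filet and 4 with beef, and it is shown on its own. It was kept as an HFD-fed mouse against chow and, as not fed fishmeal, among the 10 other HFD-fed mice. Results with mouse 31 as salmon filet or as beef are given beside those they change. Total counts ranged from 42526234 to 70266136 per library. Beef mouse 35 stands apart, with 84.34% of its counts in protein coding genes, where the other 19 libraries had 93.16% to 95.56%.

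LXRα, encoded by Nr1h3, and LXRβ, encoded by Nr1h2, are nuclear receptors that bind oxidised forms of cholesterol and act on DNA together with a retinoid X receptor. Their classic targets move sterols out of cells. Abca1 and Abcg1 pass cholesterol to lipoproteins of the HDL class, whereas Abcg5 and Abcg8 form 1 transporter at the canalicular membrane of the hepatocyte that secretes cholesterol and plant sterols into bile. Lpcat3 places polyunsaturated fatty acids into membrane phospholipids, Pltp transfers phospholipids between lipoproteins, and Lcat esterifies the cholesterol that HDL has taken up.

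Abcg5 (ENSMUSG00000040505) and Abcg8 (ENSMUSG00000024254) lie head to head. In the GENCODE annotation on GRCm38, Abcg5 occupies chr17:84658234-84683011 on the reverse strand and Abcg8 chr17:84676302-84700333 on the forward strand, so that their outer limits overlap and 82 exonic bases are shared. In RefSeq the start of Abcg5 and the nearer of the 2 starts of Abcg8 are 110 bases apart. The 109 bases between these starts hold the promoter shared by both genes called for HFD against chow, and are shown for that reason on the forward strand, at chr17:84683012-84683120 on GRCm38.p6. Capitals mark TTATC, which is GATAA on the other strand, the core that GATA factors bind.
Abcg5 and Abcg8: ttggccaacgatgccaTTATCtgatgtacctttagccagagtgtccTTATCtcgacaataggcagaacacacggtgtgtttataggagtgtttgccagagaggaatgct
GATAA occurs 2 times in this stretch, and at least once on either strand in 25.4% of the 32851 RefSeq windows that run from 250 bases before to 50 bases after a start.

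An LXR element joins 2 half-sites of 6 bases with 4 bases between them. The pattern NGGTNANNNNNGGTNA, whose letters were chosen loosely enough to take in the known element of Abca1, was searched on both strands in the windows of 8 of the 9 genes. Abcg1 has no entry in the table used. Since the letters were chosen with that element in view, the match in Abca1 was given by the choice and is shown only for its position, on the forward strand at chr4:53159947-53159962 on GRCm38.p6, with its middle 60 bases before the start of the gene, which is read from the reverse strand. Capitals mark the half-sites.
Abca1: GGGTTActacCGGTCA
The pattern is in 0.718% of all windows, and the windows of the other 7 genes held no match. The Abca1 window also held the E-box CACGTG (7.15% of windows), and no window of the 8 genes held the half-site AGGTCA (16.3% of windows). The stretch between Abcg5 and Abcg8 held none of these 3 patterns. These are matches of letters and were not measured as binding sites.

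The 9 genes spanned a wide range of levels. On the TPM scale, which corrects for the length of a gene and the depth of a library, Lcat was highest at 609 ± 104 (SD, n = 5) in chow-fed mice and 691 ± 120 (SD, n = 15) in HFD-fed mice. In chow-fed mice Pltp (79.5 ± 34.6 TPM), Lpcat3 (79 ± 4.73 TPM) and Nr1h3 (78.7 ± 11.6 TPM) came next and did not differ beyond their spread. Abca1 (56.6 ± 4.28 TPM) lay below them by more than the SD of Nr1h3 or Lpcat3 but within that of Pltp. Abcg5 (47.3 ± 10.5 TPM) was within 1 SD of Abca1, and Abcg8 (36.4 ± 9.74 TPM) was slightly more than 1 SD below Abcg5. Nr1h2 (14.7 ± 3.14 TPM) was well below Nr1h3, and Abcg1 was lowest at 2.38 ± 0.526 TPM. In HFD-fed mice the order after Lcat was Lpcat3 (92.9 ± 16.3 TPM), Nr1h3 (89.7 ± 8.64 TPM), Abcg5 (82.7 ± 18.8 TPM) and Abcg8 (71.5 ± 21.3 TPM), with Abca1 (59.6 ± 9.88 TPM) and Pltp (39.7 ± 26 TPM) now below the transporter pair. All further levels are in CPM, counts scaled to library size as normalised by TMM, and not to gene length. They compare a gene between mice but not one gene with another.

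**Figure D1:**
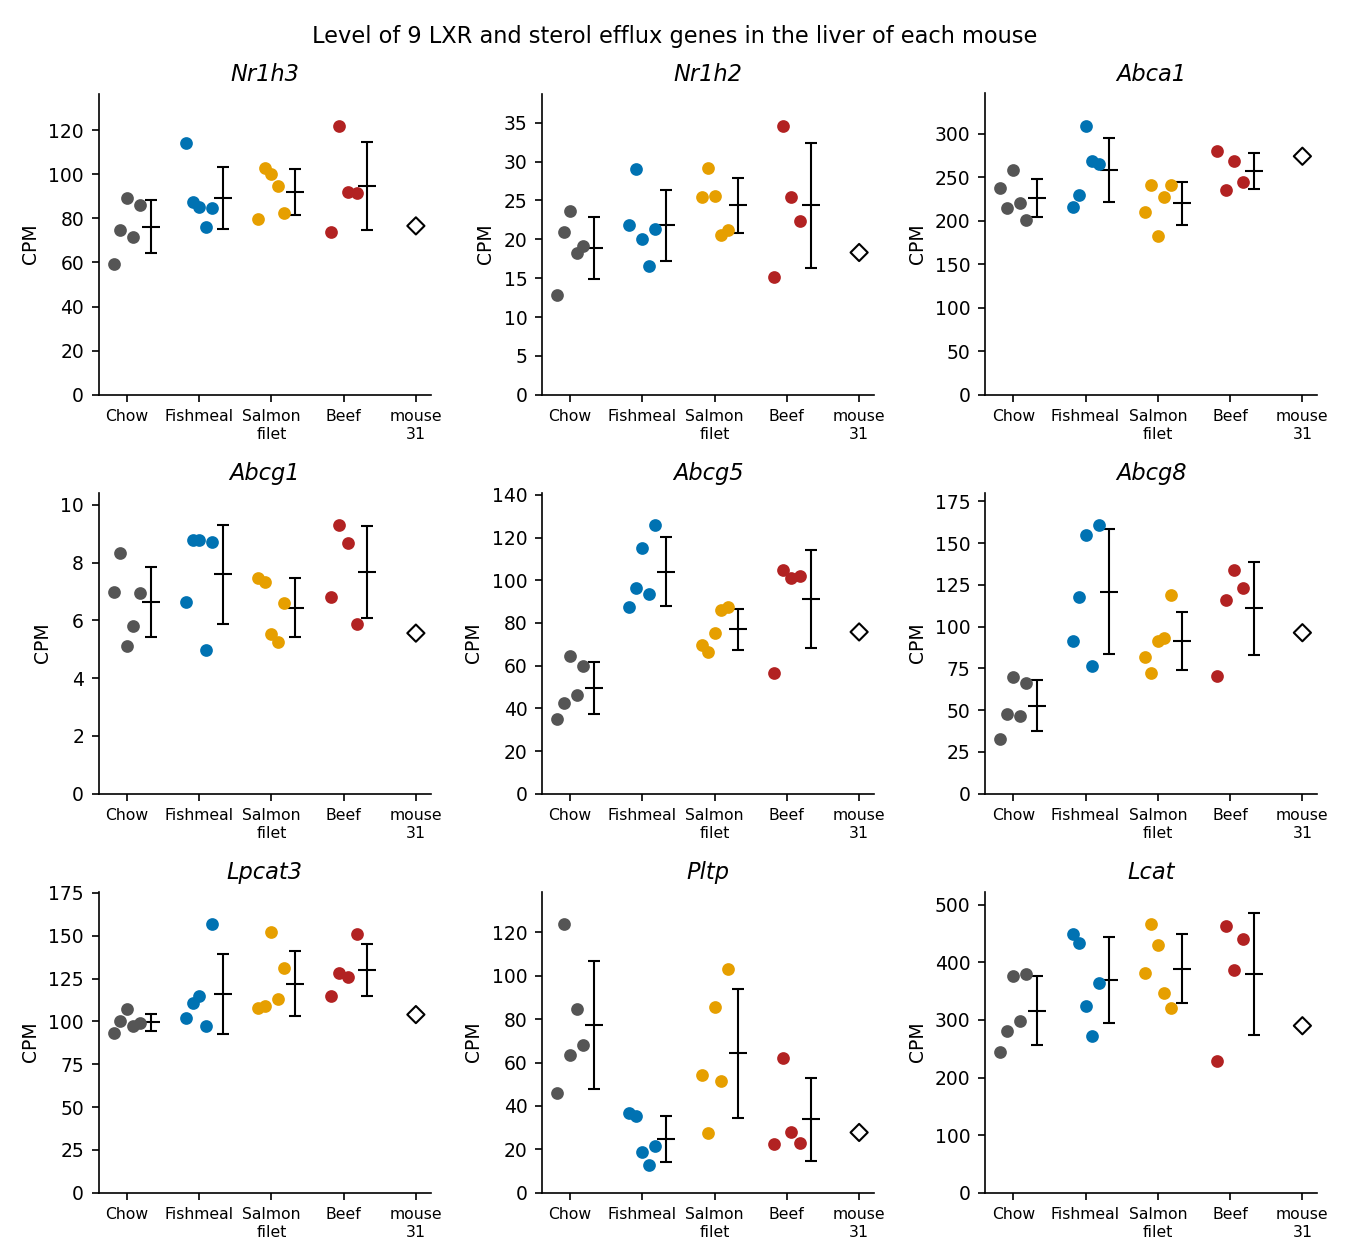
Level of each of the 9 genes in each mouse, in CPM on a linear axis from 0. Points are mice, the black marks beside them are the mean ± SD of the group, and the open diamond is mouse 31, whose diet is named in 2 ways. Abcg5 and Abcg8 are higher in the HFD groups than in chow, and Pltp is at most 36.8 CPM in the fishmeal group against at least 46.2 CPM in chow.

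HFD-fed mice were compared with chow-fed mice to see what the obesogenic diet did as a whole. Abcg5 and Abcg8, the biliary sterol transporter, were the 2 of the 9 genes that passed the test, and both were higher in HFD-fed mice. Over all 17120 genes tested, 9.75% were called, 4.54% higher and 5.21% lower. The median log2 fold change of the 9 genes was 0.25, beside 0.00 over all genes, and 8 of the 9 were above 0. A call is an adjusted p below 0.05 in edgeR's two-sided quasi-likelihood test, with Benjamini-Hochberg adjustment over all genes tested, and every adjusted p below is from that test unless another is named.

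Abcg5 was at 35.1, 42.3, 46.3, 59.8 and 64.4 CPM in the chow-fed mice. With fishmeal it was at 87.7, 93.7, 96.3, 115 and 126 CPM, with salmon filet at 66.4, 69.7, 75.5, 86.2 and 87.3 CPM, with beef at 56.6, 101, 102 and 105 CPM, and in mouse 31 at 75.8 CPM. Of the 15 HFD-fed mice, 14 were above the highest chow-fed mouse, and beef mouse 32 alone fell within the chow range. The log2 fold change of Abcg5 against chow was 0.85 (SE 0.161, 95% confidence interval 0.52 to 1.19, adjusted p = 0.00149).

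Abcg8 was at 32.9, 46.7, 48, 66.4 and 69.8 CPM with chow. It was at 76.6, 91.5, 118, 155 and 161 CPM with fishmeal, at 72.4, 82.1, 91.2, 93 and 119 CPM with salmon filet, at 70.4, 116, 123 and 134 CPM with beef, and at 96.4 CPM in mouse 31. The lowest HFD-fed mouse was just above the highest chow-fed mouse, so the groups did not overlap. The log2 fold change of Abcg8 was 1.02 (SE 0.196, 95% confidence interval 0.61 to 1.42, adjusted p = 0.00187). In bulk liver, a change in the number of cells of a type and a change of RNA per cell cannot be told apart.

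The pair moved together from mouse to mouse. After the mean of each labelled group was subtracted, the log2 CPM of Abcg5 and Abcg8 had a Pearson correlation of 0.90 over the 20 libraries, and Abcg8 was the gene most like Abcg5 among 12296 genes. The genes share 82 exonic bases and the libraries' depth and composition, and whether reads were counted by strand is not given in the sources used here. Abcg5 exceeded Abcg8 per length in each mouse, with a log2 ratio of TPM of 0.39 ± 0.11 (SD, n = 5) for chow and 0.23 ± 0.19 (SD, n = 15) for HFD. The ratio did not differ between the diets beyond the spread between mice (log2 difference -0.16, exact permutation p = 0.0903, two-sided). For fishmeal against the other HFD-fed mice the log2 difference in the ratio was 0.09 (exact permutation p = 0.409, two-sided).

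**Figure D2:**
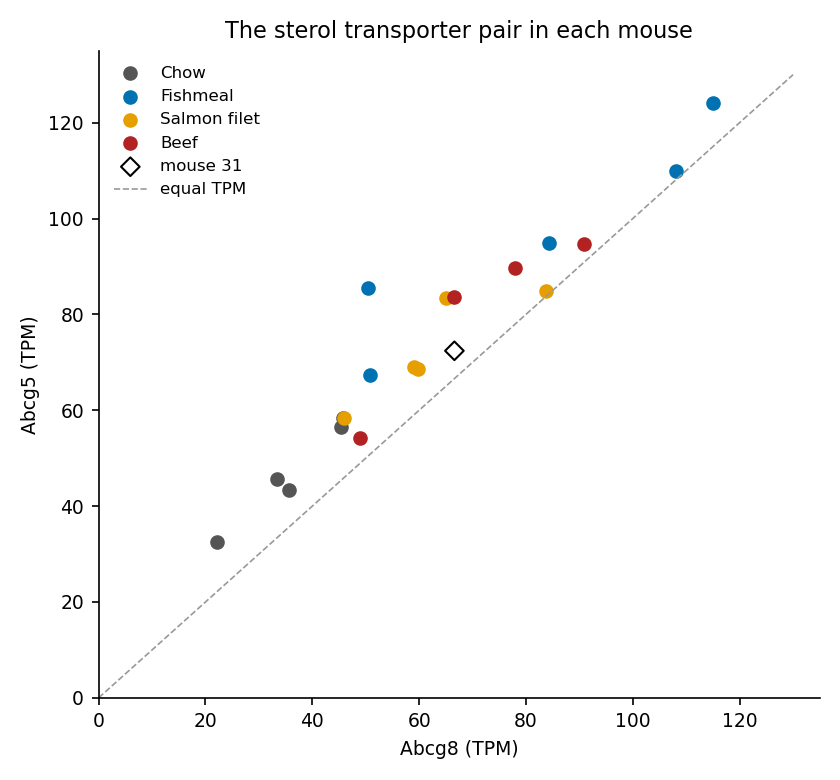
Abcg5 (vertical axis, TPM) against Abcg8 (horizontal axis, TPM) in each mouse, with a dashed line of equal TPM. All 20 points lie above the line, from a ratio of 1.01 to 1.69, with the chow-fed mice at the lower end of both axes.

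The other 7 genes were not called between HFD and chow. The receptor Nr1h3 was at 59.5 to 89.2 CPM (median 74.9) with chow and 73.8 to 122 CPM (median 87.3) with HFD, or 0.25 on the log2 scale (95% confidence interval 0.02 to 0.48, adjusted p = 0.16). Nr1h2 was at 12.8 to 23.6 CPM with chow and 15.2 to 34.6 CPM with HFD, a log2 fold change of 0.28 (-0.03 to 0.60, adjusted p = 0.261). For both receptors the groups overlapped, and the intervals leave room for a rise of the size seen but not for one as large as that fitted for Abcg8.

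The HDL-forming transporters were flatter still. Abca1 was at 201 to 258 CPM with chow and 182 to 309 CPM with HFD, a log2 fold change of 0.12 (-0.09 to 0.32, adjusted p = 0.509). Abcg1 was at 5.13 to 8.32 CPM and 4.99 to 9.31 CPM, a log2 fold change of 0.09 (-0.22 to 0.39, adjusted p = 0.767). The upper limits of both intervals are below the lower limits for Abcg5 and Abcg8, which are targets of the same receptors, although the differences between genes were not tested.

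Among the phospholipid genes, Lpcat3 was at 93.5 to 107 CPM with chow, a narrow range, and at 97.5 to 157 CPM with HFD. Its log2 fold change was 0.28 (0.07 to 0.49, adjusted p = 0.0835), and 14 of 15 HFD-fed mice were above the chow mean. Pltp went the other way, from 46.2 to 124 CPM with chow to 12.6 to 103 CPM with HFD, a log2 fold change of -0.94 (-1.66 to -0.21, adjusted p = 0.096). It was called when the 4 groups were fitted together (log2 fold change -1.08, adjusted p = 0.0242) and without salmon filet mouse 27 (-1.11, adjusted p = 0.0291). Lcat was at 244 to 379 CPM with chow and 229 to 467 CPM with HFD, a log2 fold change of 0.24 (-0.06 to 0.54, adjusted p = 0.325).

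Beyond the transporter pair, 3 of the 9 genes share exonic bases with a neighbour. Pltp shares 495 bases with Ctsa and Lpcat3 shares 334 bases with Emg1, in both cases on the other strand. Between HFD and chow, Ctsa differed by 0.14 on the log2 scale (adjusted p = 0.352) and Emg1 by 0.06 (adjusted p = 0.784). Nr1h3 shares 34 bases with Gm13783 on the same strand, which had 5 to 21 counts per library.

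Genes of the circadian clock differed between the diets as well. The 6 clock genes Dbp, Tef, Per3, Nr1d1, Nr1d2 and Ciart, whose phase is opposite to that of Arntl, were all called and all higher in HFD-fed mice, with log2 fold changes from 1.58 for Nr1d2 to 4.70 for Dbp. Tef (1.80), Per3 (2.62) and Ciart (3.29) were among them, and Clock, which is in phase with Arntl, was lower (-0.45, adjusted p = 0.0374). The call for Clock was lost on leaving out any of the 5 chow-fed mice, fishmeal mouse 20 or beef mouse 39 (adjusted p up to 0.154). That for Ciart was lost without chow mouse 1, 2, 7 or 10 (up to 0.08) and that for Per3 without chow mouse 7 (0.0538). That for Nr1d1 held in 6 of 20 such fits, with adjusted p up to 0.137, and its log2 fold change was 1.71 and rose to 2.89 without chow mouse 5. A clock score was the mean log2 CPM of these 6 genes less that of Arntl, Npas2 and Clock. It ran from -3.46 to -1.27 in chow-fed mice and from -2.46 to 4.01 in HFD-fed mice. With this score as a covariate, 0 of the 9 genes were called, and the log2 fold change was 0.55 for Abcg5 (adjusted p = 0.133) and 0.61 for Abcg8 (adjusted p = 0.161). In that fit 302 of 17120 genes were called, where 1669 were called without the score. The score also differed between the diets. Mouse 31, at -2.46, had a score inside the chow range. Its Abcg5 and Abcg8 levels of 75.8 and 96.4 CPM were above those of each chow-fed mouse. Within chow, the mouse with the highest score also had the highest level of both genes (mouse 5, 64.4 and 69.8 CPM). The same held within fishmeal (mouse 20, score 3.16, 126 and 161 CPM), but not within salmon filet or beef. The part of the clock in the difference between the diets was not tested.

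**Figure D3:**
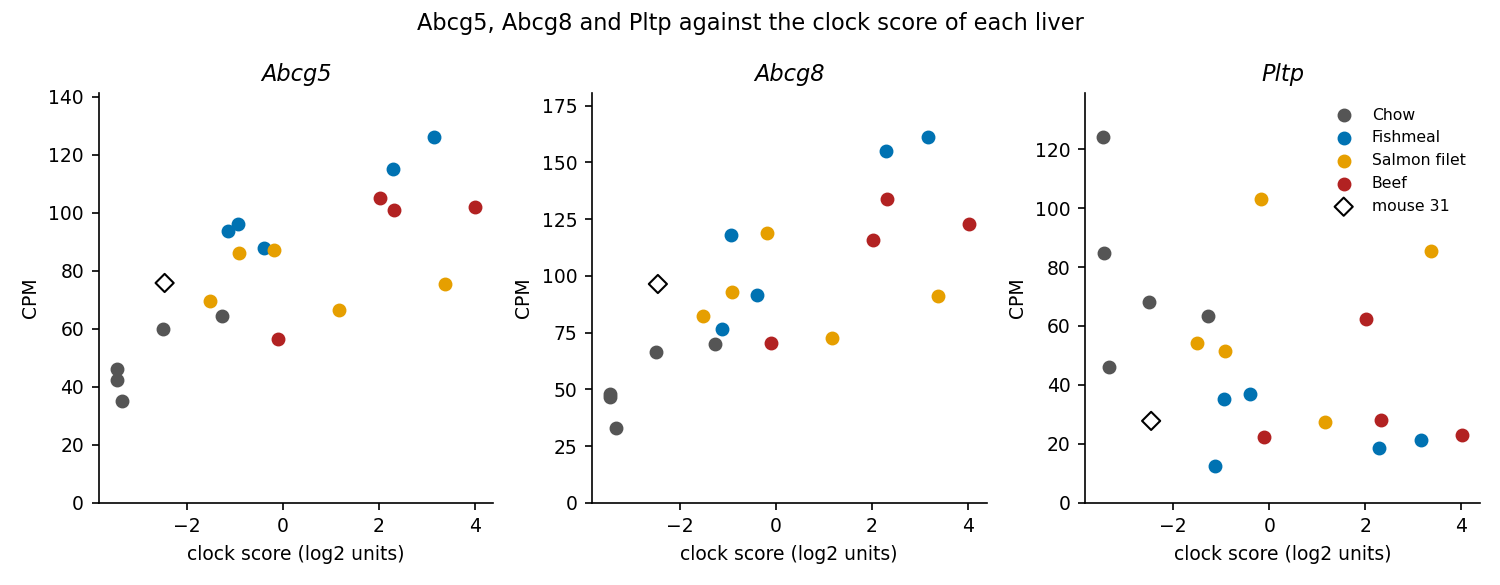
Level of Abcg5, Abcg8 and Pltp (vertical axes, CPM) against the clock score of each liver (horizontal axes, log2 units), 1 point per mouse. Chow-fed mice sit at -3.46 to -1.27, where 2 HFD-fed mice lie, and mouse 31 at -2.46 is above them for Abcg5 and Abcg8.

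Each HFD group was then compared with chow. These comparisons share the chow-fed mice. With fishmeal, 3 of the 9 genes were called, Abcg5 and Abcg8 higher and Pltp lower. Of the 16471 genes tested, 3.38% were called, 1.44% higher and 1.93% lower, and the median of the 9 genes was 0.22 beside -0.01 over all genes. The log2 fold change was 1.06 for Abcg5 (SE 0.168, adjusted p = 0.00481) and 1.19 for Abcg8 (SE 0.241, adjusted p = 0.0181), and neither gene overlapped between fishmeal and chow. The call for Abcg8 was lost without chow mouse 2 (adjusted p = 0.0573), chow mouse 7 (adjusted p = 0.0552) or fishmeal mouse 14 (adjusted p = 0.0533), and in limma on log2(TPM + 1) (adjusted p = 0.0632).

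Pltp, the phospholipid transfer protein, was at 46.2, 63.3, 68.3, 84.7 and 124 CPM with chow and at 12.6, 18.6, 21.4, 35.2 and 36.8 CPM with fishmeal. Every mouse fed fishmeal was below every chow-fed mouse. Its log2 fold change was -1.65 (SE 0.313, 95% confidence interval -2.32 to -0.97, adjusted p = 0.0131), and the call held whichever of the 10 mice was left out, with adjusted p from 0.00941 to 0.0439. Ctsa, the overlapping neighbour, had a log2 fold change of 0.14 in this comparison (adjusted p = 0.611). None of the other 6 was called, and all lay between 0.18 (Abca1) and 0.22 (Nr1h3, Lpcat3 and Lcat) on the log2 scale.

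With salmon filet, Abcg5 and Abcg8 were called, at log2 fold changes of 0.63 (SE 0.152, adjusted p = 0.0395) and 0.79 (SE 0.19, adjusted p = 0.0392). Of the 16475 genes tested, 4.42% were called, and 2.22% were called higher. Both calls stayed with mouse 31 counted as salmon filet (0.63 and 0.81), and both were lost with limma (adjusted p = 0.0628 and 0.0649) and with all 4 groups fitted together (adjusted p = 0.0501 and 0.0609). They were close to the threshold, and both were lost on leaving out any of 7 of the 10 mice: chow mouse 1, 2 or 7 or salmon filet mouse 22, 25, 26 or 27, with adjusted p up to 0.0918 and 0.0934. Pltp was at 27.5, 51.4, 54.3, 85.5 and 103 CPM with salmon filet, within and below the chow range, which gave -0.27 on the log2 scale (-0.99 to 0.44, adjusted p = 0.639). Lpcat3 did not overlap between salmon filet and chow but was not called (0.29, adjusted p = 0.106).

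With beef, Abcg8 alone was called, at 1.06 on the log2 scale (SE 0.227, adjusted p = 0.0366). Of the 16559 genes tested, 2.48% were called, and 1.17% were called higher. Abcg5 had a log2 fold change of 0.87 (adjusted p = 0.0528), was called with mouse 31 counted as beef (0.82, adjusted p = 0.0416), and was called without chow mouse 5 (adjusted p = 0.0421) or beef mouse 32 (adjusted p = 0.0127). The call for Abcg8 was lost without beef mouse 35, 39 or 40 and without chow mouse 2 or 7, with adjusted p up to 0.113. Pltp was at 22.4, 23, 28.1 and 62.3 CPM, the last in beef mouse 35, whose library stands apart. Its log2 fold change was -1.20 (-1.97 to -0.43, adjusted p = 0.1) and -1.67 without mouse 35 (adjusted p = 0.0211). Lpcat3 (0.38, adjusted p = 0.0681) did not overlap between beef and chow, and DESeq2 called it together with Pltp, Abcg5 and Abcg8.

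**Figure D4:**
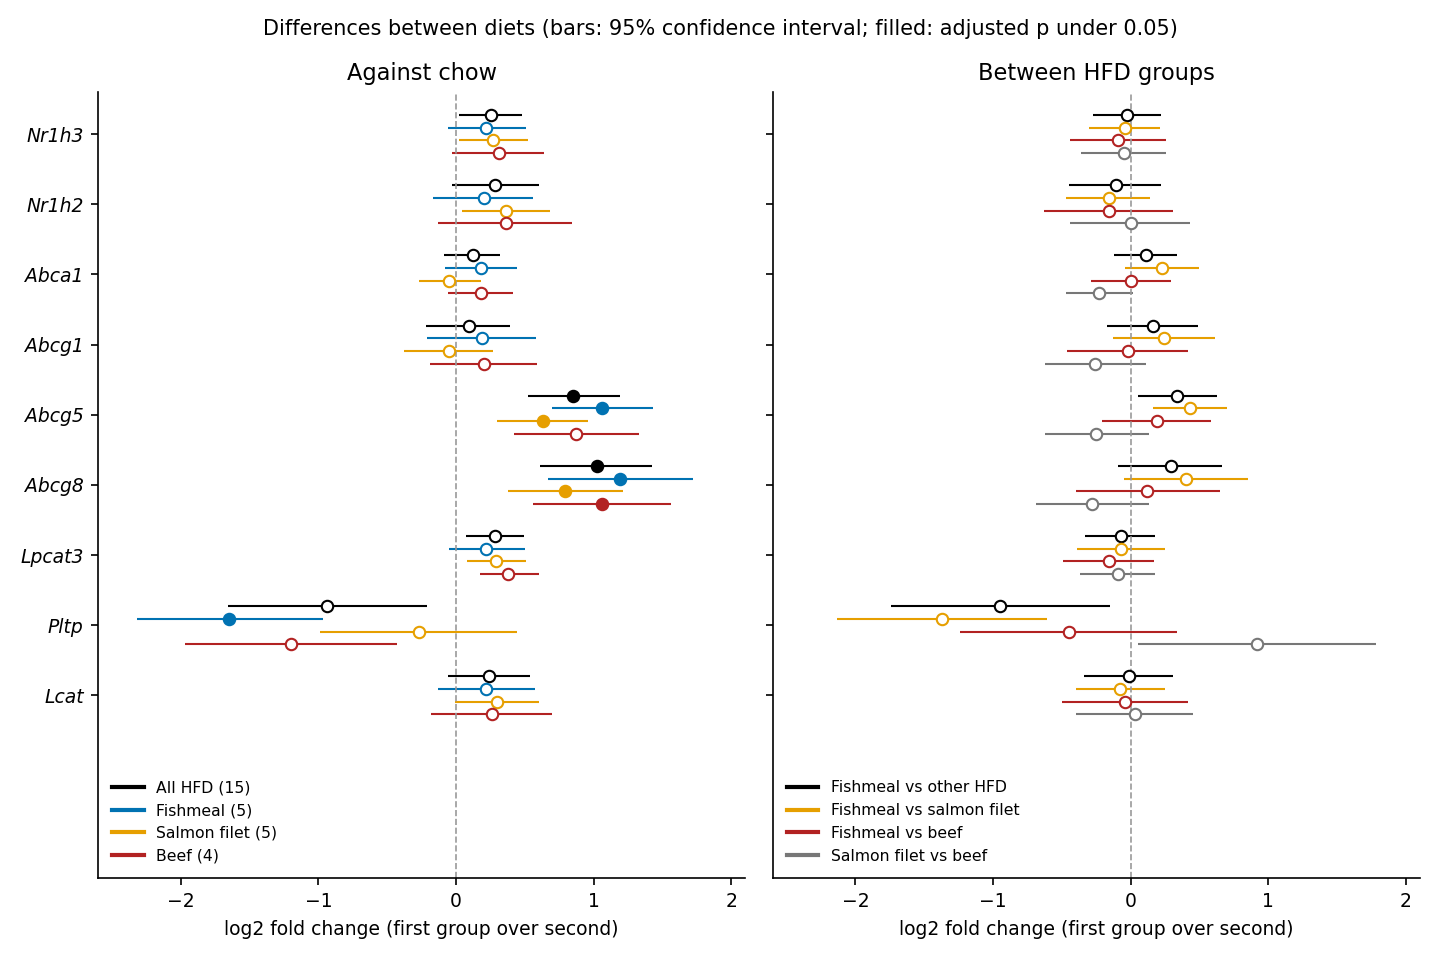
Log2 fold change of each gene against chow (left) and between HFD groups (right), with 95% confidence intervals. Filled circles mark an adjusted p under 0.05, and the numbers in the left key are mice, against 5 chow-fed mice. Abcg5 and Abcg8 lie to the right of 0 in every comparison with chow, and no circle is filled on the right side.

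Fishmeal was the diet under study, so the HFD groups were compared with each other. None of the 9 genes was called in any of these 4 comparisons under edgeR. At an unadjusted p under 0.05 there were 2 of the 9 for fishmeal against the other HFD-fed mice, 2 for fishmeal against salmon filet, 0 for fishmeal against beef and 1 for salmon filet against beef, where 4.03%, 5.16%, 2.33% and 3.92% of all genes tested were under it. Few genes of any kind were called at the adjusted threshold: 0.155% of 16795, 0.17% of 16494, 0.00607% of 16480 and 0% of 16392. DESeq2 called 1 of the 9, Pltp, in fishmeal against salmon filet, and none in the other 3.

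Against the 10 other HFD-fed mice, fishmeal had the higher mean of Abcg5, 104 ± 16.1 (SD, n = 5) against 82.6 ± 16.5 CPM (SD, n = 10), and all 5 mice were above the mean of the others. The log2 fold change was 0.34 (95% confidence interval 0.05 to 0.63, adjusted p = 0.997), and the groups overlapped. Pltp had a mean of 24.9 ± 10.6 CPM (SD, n = 5) with fishmeal and of 48.5 ± 28.2 CPM (SD, n = 10) in the others, or -0.95 on the log2 scale (-1.74 to -0.15, adjusted p = 0.997). The other 7 genes lay between -0.11 for Nr1h2 and 0.29 for Abcg8.

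Against salmon filet, the fishmeal mice had the higher Abcg5 without overlap, the lowest at 87.7 CPM and the highest salmon filet mouse at 87.3 CPM (log2 fold change 0.43, 0.16 to 0.70, adjusted p = 0.541). Pltp differed by -1.37 (-2.13 to -0.61, adjusted p = 0.34) and was called by DESeq2 (-1.35, adjusted p = 0.0153). With mouse 31 as salmon filet, these were 0.45 for Abcg5 (adjusted p = 0.336) and -1.21 for Pltp (adjusted p = 0.668). Against beef, the largest difference was -0.45 for Pltp (-1.24 to 0.34, adjusted p = 1), and without beef mouse 35 it was 0.03 (adjusted p = 1). Salmon filet and beef differed most in Pltp, by 0.92 (0.05 to 1.78, adjusted p = 0.999). This is a ratio of 1.89, which was 2.61 without beef mouse 35 (adjusted p = 0.778). For Nr1h3, Nr1h2, Abca1, Abcg1, Lpcat3 and Lcat, no 95% confidence interval between HFD groups reached beyond 0.63 on the log2 scale in either direction, whereas those of Abcg5, Abcg8 and Pltp did.

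The wider pathway was described by lists of genes. Other LXR targets did not follow the transporter pair as a group: of 16 genes, Srebf1 was called higher and Cyp7a1 lower with HFD than with chow, and the median log2 fold change was -0.06 beside 0.00 over all genes. Srebf1, whose product drives fatty acid synthesis, was at 97.1 to 136 CPM with chow and 199 to 445 CPM with HFD, without overlap (log2 fold change 1.42, SE 0.177, adjusted p = 2.22e-05). Cyp7a1, the rate-limiting enzyme of bile acid synthesis, was at 190 to 574 CPM with chow and 38.9 to 165 CPM with HFD, again without overlap (-1.98, SE 0.276, adjusted p = 8.11e-05). Both were also called with the clock score as a covariate, at 1.04 and -2.15. The lipogenic targets Fasn (0.39, adjusted p = 0.379) and Scd1 (-0.49, adjusted p = 0.45) were not called. Srebf1 and Cyp7a1 were the called genes of this list with each HFD diet against chow, and 0 of the 16 were called between fishmeal and the other HFD-fed mice.

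Of 5 genes of oxysterol metabolism that could be tested, 3 were called between HFD and chow, where 9.75% of all genes were. Cyp27a1, the mitochondrial sterol hydroxylase, was lower (-0.65, SE 0.0886, adjusted p = 6.03e-05), as was Cyp39a1 (-0.44, SE 0.121, adjusted p = 0.0237), which hydroxylates an oxysterol further. Cyp46a1, which makes 1 of the oxysterols that bind LXR, was higher at a low level, from 1.68 ± 0.344 CPM (SD, n = 5) to 2.93 ± 1.1 CPM (SD, n = 15), or 0.80 on the log2 scale (adjusted p = 0.0436), and was not called with the clock score as a covariate (0.23, adjusted p = 0.832). Its call was also lost on leaving out any of the 5 chow-fed mice, fishmeal mouse 13, 14 or 20, salmon filet mouse 25, 26 or 27, or beef mouse 40 (adjusted p up to 0.114), and that for Cyp39a1 without chow mouse 1 or 2 (up to 0.158). None of the 8 receptor partners and coregulators was called, with Rxra nearest at 0.50 (adjusted p = 0.0551). None of the 12 other genes of sterol transport and HDL that were tested was called, with Scarb1, the HDL receptor, at 0.34 (adjusted p = 0.0708) and the bile salt pump Abcb11 at -0.39 (adjusted p = 0.0502), and 0 of the 6 tested acyltransferases related to Lpcat3 was called. At an unadjusted p under 0.05 there were 3, 4 and 0 genes in these 3 lists, and 24.4% of all genes.

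The SREBP-2 side of sterol balance, the genes that a cell uses to make and take up cholesterol, moved down. Against chow, 5 of 9 were called lower with HFD and 0 higher, with a median of -0.93, where 5.21% of all genes were called lower. Sqle was lowest at -1.67 (adjusted p = 0.022), then Idi1 (-1.52, adjusted p = 0.0128) and Hmgcs1 (-1.03, adjusted p = 0.0241). Among these, calls were lost without chow mouse 2 (Sqle and Hmgcs1), chow mouse 5 (all 3) or chow mouse 7 (Hmgcs1), with adjusted p up to 0.101. The fall was uneven between diets. Of the 9 targets, 7 were called lower with fishmeal against chow (median -1.86), 1 with salmon filet (-0.50) and 2 with beef (-0.75). In these comparisons 3.38%, 4.42% and 2.48% of all genes were called in either direction. In fishmeal against the other HFD-fed mice, where 0 of the 9 LXR and efflux genes were called, 6 of the 9 SREBP-2 targets were called lower, as were 0.143% of all genes. Sqle was at 4.36 to 16.3 CPM with fishmeal and 26.8 to 75.3 CPM in the others without overlap (log2 fold change -2.46, adjusted p = 0.00144). Fdps (-2.31, adjusted p = 0.000535) and Idi1 (-1.76, adjusted p = 0.0105, and 0.0562 without fishmeal mouse 14) were also lower. Idi1 and Fdps have near-identical copies elsewhere in the genome, so their counts are uncertain. Reads shared with such copies were not examined here. By RT-qPCR, the paper reported less Fdps mRNA with fishmeal than with salmon filet.

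**Figure D5:**
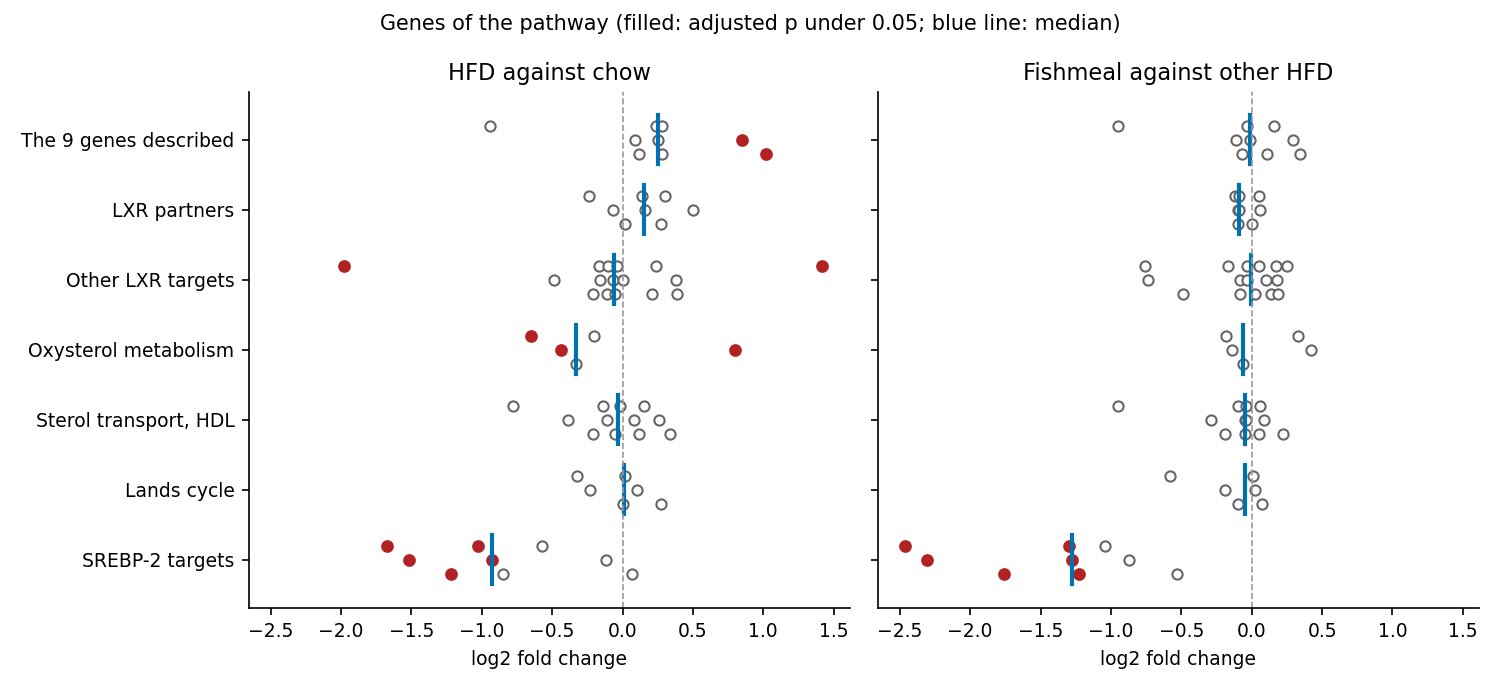
Log2 fold change of each tested gene of the pathway lists for HFD against chow (left) and in fishmeal against the other HFD-fed mice (right), on the same horizontal scale. Each circle is a gene, filled at an adjusted p under 0.05, and the blue line is the median of the list, -0.93 and -1.28 for the SREBP-2 targets and 0.25 and -0.01 for the 9 genes described.

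Within diet groups, the genes most like each of the 9 were found by the Pearson correlation of log2 CPM over the 20 libraries, after subtracting the mean of each labelled group. Beside Abcg8, the genes nearest to Abcg5 were Letmd1 (0.89) and Mgrn1 (0.86). Those nearest to Abcg8 were Fgf21 (0.92), a liver hormone, Aatk (0.91) and Slc25a42 (0.90). Nr1h3 was nearest to Sqstm1 (0.96), Rab1b (0.96) and Slc46a1 (0.94), and Nr1h2 to Dgkz, Rnf44 and Prrc2a (0.97 each). Lcat was nearest to Yipf3 (0.97), Naprt (0.97) and Alad (0.95), Pltp to Mtss1l (0.92), Prss8 (0.92) and Tns3 (0.86), and Lpcat3 to A930033H14Rik (0.89), Nhlrc2 (0.86) and Wee1 (0.85). Abca1 was nearest to Gm10319 (0.87), Aff4 (0.87) and Swt1 (0.86). Abcg1 was nearest to Abi3 (0.91), Axl (0.88) and Evl (0.87). Among the 9 genes, the receptors correlated with Lcat at 0.85 each and with each other at 0.76, while Abca1 was at -0.48 with Nr1h3, -0.63 with Pltp and -0.09 with Abcg1. These correlations share the depth and composition of the libraries and are descriptions.

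Markers of cell types were read beside these results. The 6 hepatocyte markers had 0 calls and summed to 95500 to 119976 CPM with chow and 84226 to 112978 CPM with HFD. Of the markers of Kupffer cells, the resident macrophages of the liver, 0 of the 5 tested were called (150 to 389 CPM against 144 to 292 CPM). Of 5 markers of lipid-associated macrophages, Trem2 was higher and Cd9 lower (-1.20, adjusted p = 4.5e-05), with sums of 52.5 to 110 CPM and 40.4 to 101 CPM. All 4 B cell markers were lower, among them Cd79a (-1.40, adjusted p = 0.0137, lost without chow mouse 2 or 7, up to 0.0757), with sums of 4.56 to 11.1 CPM against 1.6 to 4.49 CPM, and 2 of 5 T cell markers were lower (a median sum of 3.18 CPM, up to 4.29, against 2.28 CPM, up to 3.04). Called in single markers were Clec4g of liver endothelium (-0.29, adjusted p = 0.00758; 1 of 5, 172 to 199 CPM against 142 to 204 CPM), Sox9 of cholangiocytes (-0.61, adjusted p = 0.0301, lost without chow mouse 1, 2 or 7, up to 0.138; 1 of 4, 9.34 to 15.8 CPM against 4.51 to 12.9 CPM) and Alas2 of red blood cells (0.71, adjusted p = 0.00602; 1 of 3, 57.5 to 162 CPM against 71.4 to 377 CPM). Of 5 stellate cell markers 0 were called (111 to 156 CPM against 111 to 194 CPM), and the 4 adipocyte markers were at or near 0, with sums up to 0.158 CPM with chow and 0.215 CPM with HFD. No marker of these lists was called in fishmeal against the other HFD-fed mice. The part of these cells in the results for the 9 genes was not tested.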

How the data were processed

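Libraries of liver mRNA kept the strand and were read from both ends. The authors trimmed reads with BBDuk, mapped them with HISAT2 1.2.1, counted them per gene with featureCounts 1.4.6-p1 and deposited unnormalised counts and TPM. The genome is printed as a GRCh38 release for mouse, the settings for strand and multiply mapped reads are not given in the sources used here, and positions here are from GENCODE M21 on GRCm38. The deposited TPM values were used for levels between genes and in limma only.

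Counts were normalised by TMM, filtered with filterByExpr (minimum count 10) and tested with edgeR 4.0.16 in R 4.3.3 (quasi-likelihood, two-sided, adjusted over all genes). Log2 CPM used a prior count of 2. All 9 genes are named, and from each list up to 4 called genes with the largest change and a mean CPM of at least 1. The SREBP-2 target Sqle is named in any case, and some genes that these rules select are not reported here. Other genes of the lists that were not called, and Trem2, were named after their values were seen. Alternatives were DESeq2 1.42.0, its size factors, other count filters (1 count, or 10 in every sample), limma 3.58.1 on log2(TPM + 1) at a mean TPM of at least 0.5, a fit of all 4 groups, the clock score, both readings of mouse 31, and leaving out each mouse. The scripts were tested on simulated data. The genes, lists and tests were chosen with earlier results of these data known.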

Additional observations from a re-analysis of the deposited data

Results flagged for a closer look

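2 values stood far from the rest of their group by Dixon's test, among 36 groups of 4 or 5 mice tested for the 9 genes, where chance gives about 1 in 20. Beef mouse 32 had an Abcg5 level of 56.6 CPM, where the other 3 beef-fed mice were at 101 to 105 CPM. Beef mouse 35 had a Pltp level of 62.3 CPM, where the others were at 22.4 to 28.1 CPM, and its library had 84.34% of counts in protein coding genes. Values without these mice are given beside the comparisons of beef with chow and, for Pltp without mouse 35, with the other HFD groups. Without mouse 32, the log2 fold change of Abcg5 was 0.02 for fishmeal against beef (0.19 with it) and -0.42 for salmon filet against beef (-0.25 with it).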

How the results depend on the processing

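The higher level of Abcg5 and Abcg8 with HFD than with chow was called under every alternative but the clock score, where 0 of the 9 genes were called. Leaving out each mouse gave 2 to 3 genes called for HFD against chow, 2 to 3 for fishmeal, 0 to 2 for salmon filet and 0 to 3 for beef. For salmon filet against chow, 0 were called with limma or with all 4 groups fitted together. For beef, where 1 gene was called, DESeq2 called 4, limma 0, and 2 were called with DESeq2 size factors, with all genes of at least 1 count, with all 4 groups fitted together or with mouse 31 as beef. For fishmeal against salmon filet DESeq2 called 1, where edgeR called 0. Why the calls moved was not tested.

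The sign of a log2 fold change turned in few cases, nearly all close to 0. With the clock score, these were Abcg1 (-0.04), Lpcat3 (-0.03), Lcat (-0.01), Ciart (-0.22) and Per3 (-0.33) for HFD against chow, and Lcat for fishmeal against the other HFD (0.02); Per3 and Ciart are part of that score. With mouse 31 as salmon filet, Abca1 against chow was 0.01, Nr1h3 for fishmeal against salmon filet 0.01, and Lcat for salmon filet against beef -0.03. With mouse 31 as beef, fishmeal against beef gave Abca1 -0.02, Abcg1 0.07 and Lcat 0.03, and salmon filet against beef gave Nr1h3 0.01 and Nr1h2 0.07. Limma gave 0.02 for Abcg1 and 0.03 for Lcat in fishmeal against beef, and 0.05 for Nr1h3 and 0.12 for Nr1h2 in salmon filet against beef, where Nr1h2 was 0.00 with all genes of at least 1 count or all 4 groups.

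Leaving out each mouse turned signs within these ranges. For salmon filet against chow, Abca1 ran from -0.09 to 0.02 and Abcg1 from -0.14 to 0.04. For fishmeal against the other HFD, Nr1h3 ran from -0.13 to 0.03 and Lcat from -0.10 to 0.08. For fishmeal against salmon filet, Nr1h3 ran from -0.14 to 0.01, Lpcat3 from -0.21 to 0.03 and Lcat from -0.15 to 0.02. For fishmeal against beef, Nr1h3 ran from -0.18 to 0.07, Nr1h2 from -0.33 to 0.06, Abca1 from -0.07 to 0.07, Abcg1 from -0.13 to 0.10, Abcg8 from -0.03 to 0.25, Pltp from -0.63 to 0.03 and Lcat from -0.22 to 0.08. For salmon filet against beef, Nr1h3 ran from -0.15 to 0.10, Nr1h2 from -0.17 to 0.22 and Lcat from -0.15 to 0.14.

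Counts over all genes depended on the tool. DESeq2 called 1198 genes for fishmeal against chow (edgeR 556), 1711 for salmon filet (728), 1092 for beef (411), 66 for fishmeal against the other HFD (26), 100 against salmon filet (28), 30 against beef (1) and 5 for salmon filet against beef (0). Limma called 367 and 376 genes for fishmeal and salmon filet against chow. With limma the split was 414 higher and 806 lower for HFD against chow (edgeR 777 and 892), 110 and 257 for fishmeal (238 and 318) and 82 and 194 for beef (194 and 217). For fishmeal against beef, 10 genes were called with at least 1 count, 2 with all 4 groups and 4 with mouse 31 as beef. For beef against chow, 741 were called with all 4 groups. For single genes, each alternative in each comparison was counted separately. Of these fits, 14 gained a call, 103 lost one, 63 changed sign and 1818 kept both sign and call. No paired analysis was made, because the mice of the diet groups are separate animals. With 4 or 5 mice per diet, small differences between diets were not detectable.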
